A study of Homo sapiens with 4 samples.

Results

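The genes of cholesterol and fatty acid synthesis were followed in AGS, a cell line from a human gastric adenocarcinoma, after silencing of MFAP2, a protein of extracellular microfibrils. The 30 members were chosen by symbol, as enzymes of both pathways and the regulators of their transcription, and all 30 had a row among the 47251 genes of the deposited table. AGS cells grown in DMEM with fetal bovine serum carried either a lentiviral short hairpin RNA (shRNA) against MFAP2 (sh-MFAP2, 2 libraries) or a scrambled control shRNA (control, 2 libraries), and both were kept under puromycin to give a stable line. All 4 libraries therefore share the cell line, the lentiviral delivery and the selection, and 1 shRNA stands for the knockdown. No label says that the 2 libraries of a group came from separate cultures, so every p-value below measures only the spread between these libraries.

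Cells build cholesterol from acetyl-CoA through mevalonate and isoprenoid diphosphates to squalene, which is closed to lanosterol and then trimmed to cholesterol in the endoplasmic reticulum. Fatty acids come from the same acetyl-CoA through acetyl-CoA carboxylase and fatty acid synthase, followed by elongases and desaturases. Both branches are transcribed under the sterol regulatory element binding proteins (SREBF1 and SREBF2), membrane proteins that SCAP escorts to the Golgi when sterols are low and that INSIG1 holds back when sterols are high. Serum in the medium supplies cells with cholesterol from outside.

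No member passed the test for a difference between sh-MFAP2 and control, and the smallest adjusted p of the list was 0.337 (limma with Benjamini-Hochberg adjustment over all 9873 genes tested). Values were taken as FPKM, a fragment count corrected for transcript length and library size, and a gene was tested on log2(FPKM + 1) when its mean over the 4 libraries was at least 1 FPKM. A differentially expressed gene (DEG) had p under 0.01 and adjusted p under 0.05, which 27 of the 9873 genes met (0.273%), and 0 when any 1 of the 4 libraries was left out. Of the 30 members 27 were tested, and STARD4, FADS1 and FADS2 were below the filter. In 14 of the 27 tested members both sh-MFAP2 libraries lay above both controls, against 17.5% of all genes, and in 4 members both lay below, against 31.4% of all genes. The median log2 fold change was 0.20 over the tested members and -0.05 over all genes tested, and with 1 library left out that of the members ran from 0.14 to 0.33, highest without sh-MFAP2 2. Since the members are enzymes of shared pathways in the same 4 libraries, they are not independent of each other and no p is given for the list.

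At an unadjusted p under 0.05, 6 members were higher in sh-MFAP2, namely MVK, MVD, FDPS, FDFT1, TM7SF2 and EBP, where 3.89% of all genes met the same threshold. ACACA was the 1 member lower at that threshold, which 8.41% of all genes met. The plot of values by library shows all 30 members and the plot of fold changes the 27 that were tested.

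**Figure D1:**
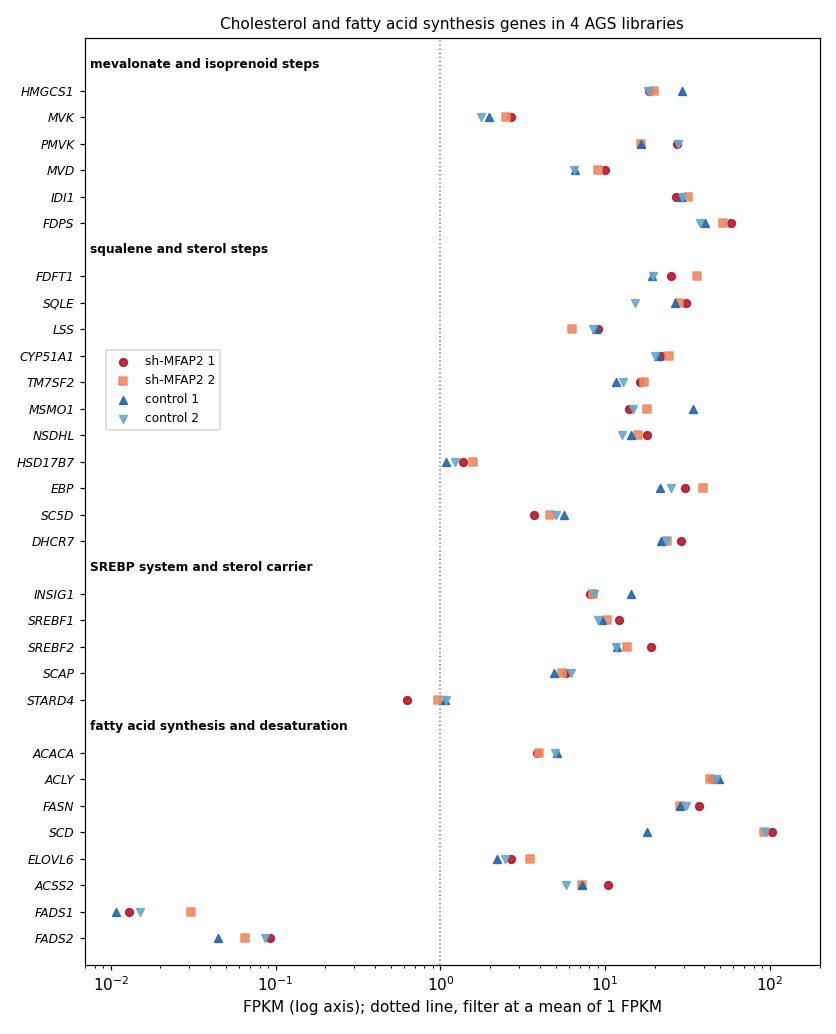
Each point is the FPKM value of 1 member in 1 library (log axis), grouped by role, with circles and squares for the 2 sh-MFAP2 libraries and triangles for the 2 controls. SCD held both the highest value, 102.9 FPKM, and the widest gap, with control 1 at 17.9 FPKM, while FADS1 and FADS2 stayed under 0.1 FPKM in every library.

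**Figure D2:**
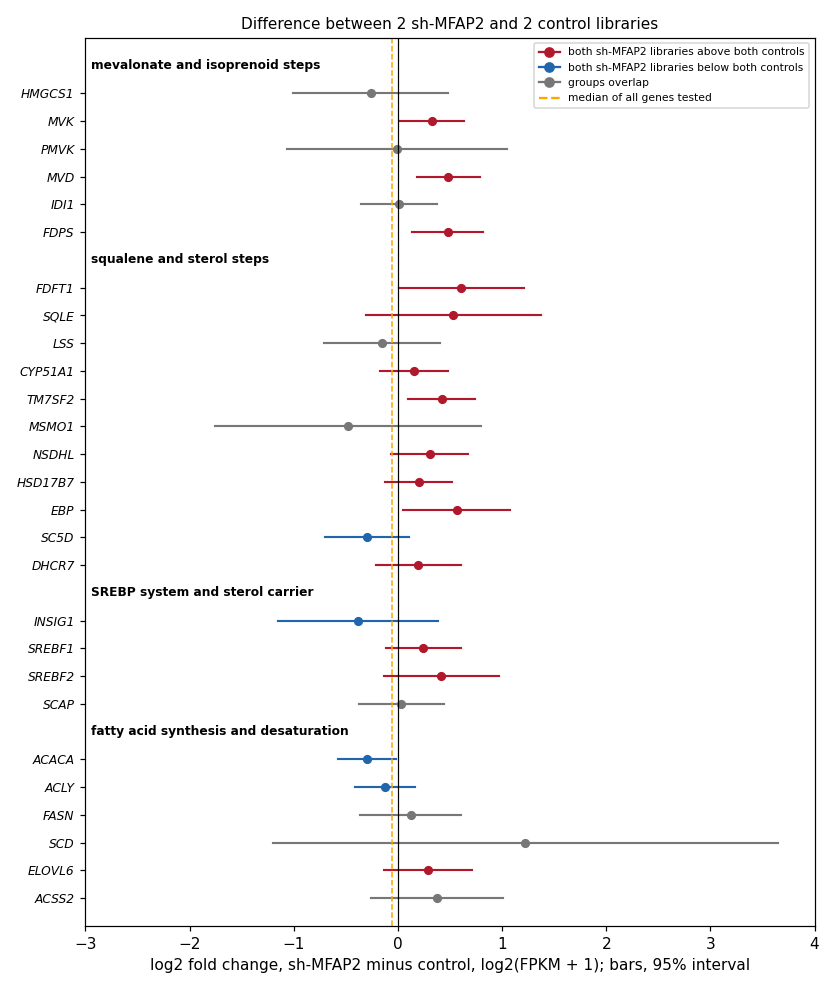
Points give the log2 fold change of sh-MFAP2 minus control on log2(FPKM + 1) for the 27 tested members and bars its unadjusted 95% interval from limma, with 2 libraries per group. Red marks the 14 members with both sh-MFAP2 libraries above both controls, blue the 4 with both below, and the dashed line the median of all genes tested, -0.05.

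The 6 mevalonate and isoprenoid enzymes split into 3 that were higher in both sh-MFAP2 libraries and 3 whose groups overlapped. Over all genes tested 17.5% were higher in both and 31.4% lower in both. MVD, which decarboxylates mevalonate diphosphate (GRCh38 chr16:88651935-88663161, minus strand), stood at 9.91 and 9.04 FPKM in the sh-MFAP2 pair and at 6.55 and 6.43 FPKM in the control pair. The groups were separated by more than either pair differed, with a log2 fold change of 0.48 (SE 0.11, adjusted p = 0.337). FDPS, the farnesyl diphosphate synthase (chr1:155308748-155320666, plus strand), had 57.8 and 52.0 FPKM in the sh-MFAP2 pair against 40.5 and 37.7 FPKM in the control pair. Again the 2 sh-MFAP2 libraries were the higher pair, with a log2 fold change of 0.48 (SE 0.12, adjusted p = 0.360). MVK, the mevalonate kinase, was a weakly expressed member, at 2.69 and 2.50 FPKM in the sh-MFAP2 pair and at 1.98 and 1.76 FPKM in the control pair. Its log2 fold change of 0.32 (SE 0.11, adjusted p = 0.398) came from groups that did not overlap. With the trend of transcript length and GC content taken out of each library, the log2 fold change was 0.25 for MVD and 0.15 for MVK.

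The other 3 enzymes of these steps showed no common direction. PMVK, the phosphomevalonate kinase, was read at 27.3 and 16.6 FPKM in the sh-MFAP2 pair and at 16.5 and 27.5 FPKM in the control pair, so that each group held 1 high and 1 low library and the log2 fold change was 0.00 with a 95% interval from -1.06 to 1.05. IDI1, which isomerises isopentenyl diphosphate, lay within 26.9 to 31.7 FPKM in all 4 libraries, with a 95% interval from -0.36 to 0.38 on the log2 scale. HMGCS1, which makes the HMG-CoA from which mevalonate is formed, stood at 18.4 and 19.8 FPKM in the sh-MFAP2 pair and at 29.2 and 18.1 FPKM in the control pair, and control 1 alone was high.

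Among the 11 squalene and sterol enzymes 8 were higher in both sh-MFAP2 libraries than in both controls (72.7%, against 17.5% of all genes). A single enzyme was lower in both (9.1%, against 31.4% of all genes) and 2 overlapped. FDFT1, the squalene synthase that takes farnesyl diphosphate into the sterol branch (chr8:11795573-11839309, plus strand), stood at 25.1 and 36.2 FPKM in the sh-MFAP2 pair and at 19.4 FPKM in both controls. The controls were nearly equal and the sh-MFAP2 libraries were well apart, giving a log2 fold change of 0.61 (SE 0.21, adjusted p = 0.403), and 0.35 without sh-MFAP2 2. EBP, a sterol isomerase of the endoplasmic reticulum (chrX:48521158-48528716, plus strand), had 30.6 and 39.4 FPKM in the sh-MFAP2 pair against 21.5 and 25.0 FPKM in the control pair. Its log2 fold change was 0.56 (SE 0.18, adjusted p = 0.394), with no overlap between the groups, and 0.27 from summed transcripts. TM7SF2, a sterol reductase (chr11:65111845-65116384, plus strand), was at 16.2 and 17.2 FPKM in the sh-MFAP2 pair and at 11.6 and 12.9 FPKM in the control pair. The 2 pairs were tight and separate, with a log2 fold change of 0.42 (SE 0.11, adjusted p = 0.372). It was 0.22 with the length and GC trend removed and 0.20 from summed transcripts.

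Smaller separations were seen in the remaining sterol enzymes. NSDHL, a sterol dehydrogenase that works in removing methyl groups, had 17.9 and 15.8 FPKM in the sh-MFAP2 pair and 14.3 and 12.7 FPKM in the control pair, a log2 fold change of 0.30 (95% interval -0.06 to 0.67). HSD17B7, the ketoreductase of the same complex, had 1.36 and 1.57 FPKM against 1.08 and 1.22 FPKM. The near-identical copy HSD17B7P2 had 0.801 and 0.90 FPKM in the sh-MFAP2 pair and 0.697 and 0.630 FPKM in the control pair, so the split of reads between these 2 rows is uncertain. CYP51A1, the lanosterol demethylase, stood at 21.7 and 24.3 FPKM against 20.9 and 20.1 FPKM, and DHCR7, the reductase that gives cholesterol itself, at 28.7 and 23.7 FPKM against 21.8 and 23.6 FPKM. For both, the lower sh-MFAP2 library exceeded the higher control by less than the 2 sh-MFAP2 libraries differed from each other. SQLE, the squalene epoxidase, was at 30.9 and 28.2 FPKM in the sh-MFAP2 pair and at 26.5 and 15.3 FPKM in the control pair. Most of its log2 fold change of 0.53 (SE 0.30, adjusted p = 0.510) lay in control 2, without which it was 0.15.

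Lanosterol synthase and the sterol desaturase did not share that direction. LSS, which closes squalene epoxide to lanosterol, had 9.11 and 6.32 FPKM in the sh-MFAP2 pair and 8.77 and 8.38 FPKM in the control pair, with the 2 sh-MFAP2 libraries on either side of the controls. SC5D, which places a double bond in the sterol ring, had 3.71 and 4.65 FPKM in the sh-MFAP2 pair against 5.61 and 5.06 FPKM in the control pair, the 1 sterol enzyme lower in both (log2 fold change -0.30, SE 0.14, adjusted p = 0.471, and -0.16 without sh-MFAP2 1). MSMO1, the sterol methyl oxidase that feeds NSDHL, was at 13.96 and 17.98 FPKM in the sh-MFAP2 pair and at 34.0 and 14.8 FPKM in the control pair, and only control 1 was high.

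Of the SREBP system, both factors were higher in both sh-MFAP2 libraries. SREBF2, the factor most tied to sterol genes (chr22:41833079-41907308, plus strand), had 19.0 and 13.5 FPKM in the sh-MFAP2 pair and 11.8 and 11.7 FPKM in the control pair. The sh-MFAP2 libraries differed from each other by more than the lower of them differed from the controls (log2 fold change 0.42, SE 0.19, adjusted p = 0.461, and 0.19 without sh-MFAP2 1). SREBF1, the factor most tied to fatty acid genes (chr17:17810399-17837002, minus strand), stood at 12.1 and 10.3 FPKM against 9.51 and 9.09 FPKM, a log2 fold change of 0.24 (SE 0.13, adjusted p = 0.491), or 0.14 without sh-MFAP2 1. SCAP, the escort protein, had 5.82 and 5.47 FPKM in the sh-MFAP2 pair and 4.87 and 6.17 FPKM in the control pair, and its groups overlapped. INSIG1, the retention protein and itself a sterol-responsive gene, stood at 8.11 and 8.47 FPKM in the sh-MFAP2 pair and at 14.3 and 8.53 FPKM in the control pair. Control 2 lay above the higher sh-MFAP2 library by less than the sh-MFAP2 pair differed, so the lower group value rests on control 1. STARD4, a carrier of cholesterol between membranes, was below the filter, at 0.630 and 0.964 FPKM in the sh-MFAP2 pair and at 1.06 and 1.09 FPKM in the control pair.

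Of the 6 tested fatty acid enzymes 1 was higher in both sh-MFAP2 libraries, 2 were lower in both and 3 overlapped. The shares of 16.7% higher and 33.3% lower are near the 17.5% and 31.4% of all genes. ACACA, the acetyl-CoA carboxylase (chr17:37084988-37406818, minus strand), stood at 3.87 and 3.97 FPKM in the sh-MFAP2 pair and at 5.10 and 4.99 FPKM in the control pair. Both pairs were close and the sh-MFAP2 pair was lower, with a log2 fold change of -0.30 (SE 0.10, adjusted p = 0.397). From summed transcripts the value was -0.11 and the groups overlapped, at 7.29 and 8.78 FPKM against 8.95 and 8.47 FPKM. ACLY, which makes acetyl-CoA from citrate, had 44.5 and 43.4 FPKM in the sh-MFAP2 pair against 48.8 and 47.3 FPKM in the control pair, a log2 fold change of -0.12 (SE 0.10). ACSS2, which makes it from acetate, had 10.4 and 7.24 FPKM against 7.26 and 5.78 FPKM, and the groups overlapped narrowly. FASN, the fatty acid synthase, was high only in sh-MFAP2 1, at 36.9 FPKM, with the other 3 libraries between 28.5 and 30.8 FPKM. ELOVL6, an elongase of saturated fatty acids, had 2.69 and 3.51 FPKM in the sh-MFAP2 pair and 2.20 and 2.48 FPKM in the control pair (log2 fold change 0.29, SE 0.15, adjusted p = 0.489, and 0.15 without sh-MFAP2 2).

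SCD, the stearoyl-CoA desaturase (chr10:100347124-100364834, plus strand), was the most abundant member by FPKM, a scale per length, in 3 of the 4 libraries. It stood at 102.9 and 92.2 FPKM in the sh-MFAP2 pair and at 17.9 and 93.2 FPKM in the control pair. Control 1 alone was low, by a factor of 5.38 against the mean of the other 3 libraries, which lay within 1.12 times of each other. The log2 fold change of 1.22 had a 95% interval from -1.20 to 3.65, and without control 1 it was 0.06. A single transcript of 5362 bases is listed for the gene, so no split between transcripts enters its value.

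The polyunsaturated fatty acid desaturases were listed near 0 in all 4 libraries. FADS1 had 0.0129 and 0.0307 FPKM in the sh-MFAP2 pair and 0.0107 and 0.0151 FPKM in the control pair, and FADS2 had 0.0924 and 0.0650 against 0.0445 and 0.0862 FPKM. At the depth inferred from the tables, the transcript values of FADS1 correspond to 6.41 to 16.9 reads per library. Those of FADS2 correspond to 29.1 to 71.4 reads. FADS1 (chr11:61799625-61829318, minus strand) and FADS2 (chr11:61792980-61867354, plus strand) overlap in part of their annotated span, and whether the libraries kept strand is not given in the sources used here. ELOVL5 and HSD17B12, which act in fatty acid elongation, were listed at no more than 0.00889 and 0.00820 FPKM, and were named after their values were seen. HSD17B12 acts in most cells, so a listing near 0 in these tables can be a failed estimate. Whether the same holds for FADS1, FADS2 and ELOVL5 was not tested.

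Control 1 stood apart in 4 members, which were singled out after their values were seen. HMGCS1, MSMO1 and INSIG1 were 1.56, 2.18 and 1.72 times as high in control 1 as in the mean of the other 3 libraries, while SCD was the low one. The other 3 libraries were alike in HMGCS1 and INSIG1, within 1.09 and 1.05 times, and within 1.29 times in MSMO1. Leaving control 1 out turned the log2 fold change of HMGCS1 from -0.26 to 0.07 and that of MSMO1 from -0.48 to 0.10, and brought that of INSIG1 from -0.38 to -0.04. Not all sterol genes followed. CYP51A1, IDI1 and SQLE in control 1 were 0.951, 0.989 and 1.07 times the mean of the other libraries. Over the 27 tested members sh-MFAP2 1 was the highest library in 12 and control 2 the lowest in 10.

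**Figure D3:**
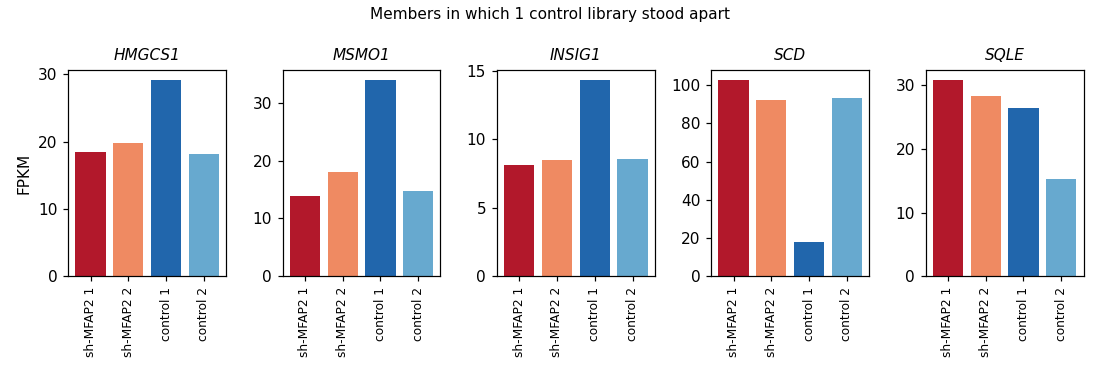
Bars give the FPKM of 5 members in each of the 4 libraries, with axes from 0. HMGCS1, MSMO1 and INSIG1 were high and SCD low in control 1 alone, and SQLE was low in control 2, at 15.3 FPKM.

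The stretches before the RefSeq start sites of the 3 genes that were high in control 1 are printed beside that of SREBF2, to show the elements by which sterol genes are usually recognised. Capitals mark CCAAT boxes, the binding letters of NF-Y, on either strand (CCAAT or ATTGG), and in SREBF2 also the core of the sterol response element, TCACNCCAC. CCAAT boxes also lie before SCD, which was low in control 1, and before some starts of IDI1, which did not follow. The window of CYP51A1, which did not follow either, holds none. A link between these boxes and the values of control 1 was not tested. Coordinates are on GRCh38.p14 at chr5:43313498-43313577 (minus strand) for HMGCS1, chr4:165327474-165327649 (plus strand) for MSMO1, chr7:155297698-155297722 (plus strand) for INSIG1 and chr22:41832962-41833013 (plus strand) for SREBF2, and each lies upstream of a RefSeq start site of its gene.
HMGCS1: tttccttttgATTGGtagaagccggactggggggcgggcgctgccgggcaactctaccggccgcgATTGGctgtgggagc
MSMO1: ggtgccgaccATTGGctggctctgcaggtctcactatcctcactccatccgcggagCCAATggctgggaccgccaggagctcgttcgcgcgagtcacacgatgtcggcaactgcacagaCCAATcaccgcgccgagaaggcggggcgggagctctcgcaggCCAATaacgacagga
INSIG1: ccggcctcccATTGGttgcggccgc
SREBF2: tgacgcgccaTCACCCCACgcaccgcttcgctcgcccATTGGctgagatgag

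Of the 30 members 27 had at least 1 entry in the RefSeq promoter table, 37 promoters in all, and the 250 bases before each start were searched on both strands. A CCAAT box was found in 24 of the 37 member promoters and in 20 of the 27 genes, and 32.01% of all 35116 promoters hold one. GGGCGG, the GC box, was found in 33 of the 37, and 42.64% of all promoters hold it. TCACNCCAC was found only in SREBF2 among the 27 genes searched and in 0.88% of all promoters. FDFT1, SQLE and FASN had no entry and were not searched. None of these motifs contains another. A match is a run of letters and not a measured binding site, and the absence of one says only that those letters are not in this window.

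In 6 members the transcript table held tested forms on both sides of the controls, at least 1 higher and 1 lower in both sh-MFAP2 libraries, namely TM7SF2, EBP, ELOVL6, INSIG1, ACLY and CYP51A1. The share of all genes with such a split was not taken, so this count is not a result about the members. TM7SF2 had the most, 1 higher and 5 lower. In this gene, ENST00000279263, with 10 exons and 1254 coding bases, stood at 23.5 and 28.7 FPKM in the sh-MFAP2 pair and at 0 FPKM in both controls. It made up 66.6% and 77.3% of the summed transcript value of the gene in sh-MFAP2. ENST00000530650, with 8 exons and no coding sequence, runs on into intron 1 (chr11:65112068-65112514). It was at 2.61 and 1.20 FPKM in the sh-MFAP2 pair and at 7.71 and 9.86 FPKM in the control pair. ENST00000345348, which lacks exon 8 (chr11:65115314-65115394, 81 coding bases), was at 2.07 and 0.398 FPKM against 6.5 and 4.57 FPKM, and ENST00000528802 at 1.87 and 1.996 FPKM against 4.15 and 4.09 FPKM. The full-length form was thus the high one in sh-MFAP2 and the other 3 were lower there, without overlap. The summed transcript value of the gene was 35.3 and 37.1 FPKM in the sh-MFAP2 pair and 29.8 and 33.0 FPKM in the control pair, so the forms moved apart by more than their sum.

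None of the 22312 transcripts tested was a DEG by the same thresholds (0%), and 7.64% had an unadjusted p under 0.05. Among the 76 tested transcripts of members none passed and 12, from 6 genes, had an unadjusted p under 0.05, of which 6 belonged to TM7SF2. ENST00000279263 had an adjusted p of 0.070, the smallest of the members, and ENST00000530650 one of 0.404 (limma with Benjamini-Hochberg adjustment). No fold is given for ENST00000279263, because a control value of 0 in a table of estimated values can be a failed split among overlapping transcripts. The following lines show how the first 2 forms differ after exon 1, which is not their only difference. They are from the GENCODE 29 transcripts on the plus strand. Lower case marks the last 30 bases of exon 1 and capitals the 30 bases after it.
ENST00000279263: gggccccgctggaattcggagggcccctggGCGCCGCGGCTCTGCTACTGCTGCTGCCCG
ENST00000530650: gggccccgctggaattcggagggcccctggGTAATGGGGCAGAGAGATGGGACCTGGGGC
In ENST00000279263 the capitals are the start of exon 2 (chr11:65112515-65112711), and both sides of the junction are coding. In ENST00000530650 they are the start of intron 1.

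**Figure D4:**
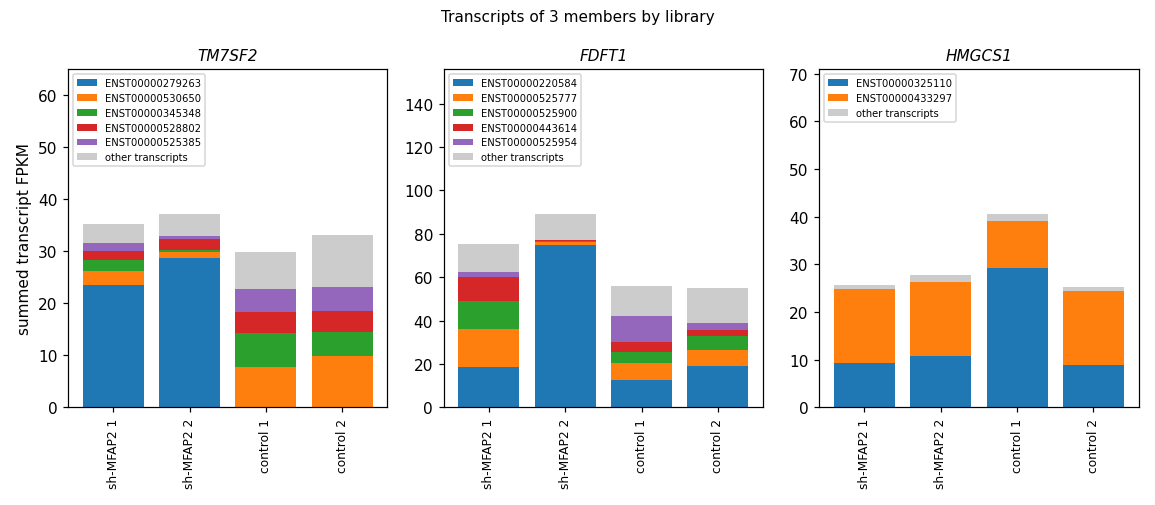
Stacked bars give the FPKM of each transcript holding at least 10% of its gene in any library, with the rest in grey, for TM7SF2, FDFT1 and HMGCS1 in the 4 libraries. ENST00000279263 of TM7SF2 was present in both sh-MFAP2 libraries and listed at 0 FPKM in both controls, whereas the split of FDFT1 stood apart in sh-MFAP2 2 and, by ENST00000525954, in control 1, and that of HMGCS1 in control 1.

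In the other members with an unadjusted p under 0.05 the transcripts gave a less even account. ENST00000220584 of FDFT1 held 84.0% of the gene in sh-MFAP2 2, against 24.9% in sh-MFAP2 1 and 23.0% and 34.6% in the controls. ENST00000525777 of the same gene was at 17.4 and 1.23 FPKM in the sh-MFAP2 pair and at 7.72 and 7.31 FPKM in the control pair, ENST00000525900 at 12.8 and 0.567 against 4.79 and 6.75 FPKM, and ENST00000443614 at 11.4 and 0.397 against 4.61 and 2.70 FPKM. These 4 forms overlapped between the groups, with sh-MFAP2 2 apart from the other libraries. A further form named after its values were seen, ENST00000525954, was at 2.02 and 0.172 FPKM in the sh-MFAP2 pair and at 12.4 and 3.20 FPKM in the control pair, lower in both and highest in control 1. The leading transcript of EBP, ENST00000495186, was at 31.0 and 47.5 FPKM in the sh-MFAP2 pair against 15.4 and 23.2 FPKM in the control pair, while ENST00000446158 was at 4.83 and 6.62 FPKM against 17.6 and 7.95 FPKM, ENST00000498425 at 5.55 and 3.30 against 7.41 and 10.2 FPKM, and ENST00000276096 at 11.5 and 2.62 against 5.93 and 5.08 FPKM.

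FDPS and MVD carried their difference in the leading forms. Transcript values need not sum to the gene value and are not parts of it. In sh-MFAP2 1 the transcripts of FDPS summed to 172 FPKM, against 57.8 FPKM for the gene. ENST00000467076 of FDPS was at 81.0 and 66.3 FPKM in the sh-MFAP2 pair and at 41.1 and 46.1 FPKM in the control pair (log2 fold change 0.74, SE 0.19, adjusted p = 0.567), and ENST00000356657 was at 19.9 and 18.8 against 14.2 and 14.4 FPKM. ENST00000368356 and ENST00000612683 of the same gene overlapped between the groups. Both main forms of MVD, ENST00000301012 and ENST00000620002, were higher in both sh-MFAP2 libraries. Of MVK, ENST00000228510 was higher in both, at 6.36 and 5.16 against 4.35 and 3.84 FPKM, and ENST00000392727 overlapped. ENST00000614428 of ACACA was lower in both, at 4.79 and 5.10 against 6.54 and 6.63 FPKM, and ENST00000612007 and ENST00000614438, which are short forms, were too low to be tested.

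HMGCS1 was looked at outside the rule for naming transcripts, after its values were seen. The excess of control 1 lay in ENST00000325110, at 29.2 FPKM there and between 8.80 and 10.8 FPKM in the other libraries. ENST00000433297, which has 10 exons instead of 11 and the same 1560 coding bases, was the low one in control 1, at 9.83 FPKM against 15.4 to 15.6 FPKM. The sum of both forms was still higher in control 1.

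Genes with neighbouring roles gave no common direction. Of a list of 64 genes for SREBP processing, side branches of the mevalonate pathway, sterol transport and fatty acid supply, 56 were tested and none was a DEG (smallest adjusted p 0.313). Both sh-MFAP2 libraries lay above both controls in 11 of the 56 and below both in 18, shares of 19.6% and 32.1% that are near the 17.5% and 31.4% of all genes, and the median log2 fold change was 0.02. At an unadjusted p under 0.05 none was higher and 8 were lower, where 3.89% and 8.41% of all genes were. The 4 parts of the list differed. In the 10 tested genes of SREBP processing and its partner factors none was higher in both sh-MFAP2 libraries and 5 were lower in both. Of the 13 tested genes in other steps and branches of the mevalonate pathway, 5 were higher in both and 4 lower in both. Their median log2 fold change was 0.18. Of 11 tested genes of sterol transport 1 was higher in both and 3 lower in both. Of 22 tested genes of fatty acid supply 5 were higher in both and 6 lower in both.

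The lower genes with the smallest p were RDH11, SP1 and MBTPS1, of which SP1 and MBTPS1 were listed under SREBP processing and partner factors. RDH11, a retinol dehydrogenase of the endoplasmic reticulum, was at 14.4 and 12.2 FPKM in the sh-MFAP2 pair and at 25.7 and 21.9 FPKM in the control pair, with a log2 fold change of -0.80 (SE 0.15, adjusted p = 0.313). SP1, which binds GC boxes beside SREBP sites, was at 1.46 and 1.83 FPKM against 2.63 and 3.22 FPKM (log2 fold change -0.57, SE 0.14, adjusted p = 0.362). MBTPS1, the protease that makes the first cut in SREBP in the Golgi, was at 10.2 and 9.70 FPKM against 13.8 and 12.9 FPKM (log2 fold change -0.39, SE 0.11, adjusted p = 0.378). Thus the tested SREBP genes and their processing protease lay on opposite sides of the controls, none past the test. In the higher direction the smallest p were those of MID1IP1, a partner of acetyl-CoA carboxylase, at 12.2 and 11.7 against 9.95 and 9.08 FPKM, of DGAT1, which closes triglycerides, at 8.97 and 7.57 against 6.02 and 6.5 FPKM, and of ELOVL1, an elongase of very long chains, at 57.6 and 44.7 against 36.0 and 39.4 FPKM.

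Of the properties of the libraries, the summed fibroblast markers were lower in both sh-MFAP2 libraries. So were the summed endothelial markers, which were near 0, at 0.0145 and 0.021 FPKM against 0.038 and 0.0251 FPKM. Depth and the summed epithelial and leukocyte markers overlapped between the groups. The log2 fold change also had a trend with transcript length and GC content. Depth, inferred from the steps between low values, was 54800000 to 75100000 reads per library. MFAP2 mRNA had no value above 0 in the sh-MFAP2 pair and 0.0116 and 0.0138 FPKM in the control pair, at most 3.02 inferred reads against a floor of 3 counts, and therefore gave no check on which libraries carried the knockdown. Of 8 epithelial markers 7 reached a mean of 1 FPKM, with summed levels of 1810 to 2030 FPKM, while of 6 fibroblast markers only COL1A1 did (sum 2.12 to 2.34 FPKM in the sh-MFAP2 pair and 4.39 to 4.96 FPKM in the control pair), of 5 leukocyte markers CD68 and LYZ did (sum 88.7 and 583 FPKM in the sh-MFAP2 pair, 97.4 and 376 FPKM in the control pair) and of 4 endothelial markers none did. Shorter and more GC-rich transcripts were on the whole higher in sh-MFAP2, with Spearman's rho of -0.32 between log2 fold change and length and 0.37 with GC content across 9795 genes, and of -0.24 and 0.31 across the 27 members, which share the same 4 libraries. The 14 members higher in both sh-MFAP2 libraries had a median length of 2066 bases and the 4 lower ones of 3674 bases. When the trend with length and GC content was taken out of each library, the median log2 fold change of the members was 0.15. The median of -0.05 over all genes tested belongs to the fit without that correction. All 4 libraries came from a single cell line, so the marker sums were not read as shares of cell types. The part of the markers in the results was not tested.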

How the data were processed

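RNA from 4 libraries of AGS cells (2 sh-MFAP2, 2 control, grouped by their labels) was sequenced by the authors, whose processing notes name genome build hg38. The aligner, the program and the annotation are not given in the sources used here. The authors deposited 47251 gene and 180500 transcript values, taken here as FPKM from the values themselves, since the tables name no unit. FPKM fixes the total of each library, so values are relative. Members and lists were chosen with earlier results of these data known.

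The fit used log2(FPKM + 1) of genes averaging 1 FPKM or more, by linear models in limma 3.58.1 (R 4.3.3; moderated variances with a trend on mean level) and Benjamini-Hochberg adjustment over all 9873 genes. The fold change on that scale understates changes of low genes. An exact permutation test of 2 against 2 libraries cannot go below p = 0.333. On simulated data with 9873 genes, the fit called 76 of 100 genes with a log2 shift of 1, 100 of 100 with a shift of 2, and 9 unchanged genes. The simulated errors were normal, with equal spread in both groups. In the real libraries the median log2 difference between replicates was 0.204 in sh-MFAP2 and 0.113 in control. The simulated counts therefore do not give the power in these data. Depth was inferred from steps between low values, of which 62.1% to 62.2% lay within 0.05 of a whole read, against 10% by chance, so no count test was run. Intervals cover the spread between these libraries. All members were named, with the 3 related genes of smallest p in each direction and, for members with p under 0.05, up to 4 transcripts of at least 10% of the gene. Coordinates are from GENCODE 29 and promoters from RefSeq. Alternatives were other filters, pseudocounts, scalings, thresholds, a replicate block, sums of transcripts, leaving out each library, and a correction for transcript length and GC content, which was chosen after seeing the data.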

Additional observations from a re-analysis of the deposited data

How the results depend on the processing

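No member was a DEG under any alternative fit or with adjusted p under 0.1 alone, and 7 had an unadjusted p under 0.05, as did 8 related genes and 12 member transcripts, with 1 transcript at an adjusted p under 0.1. Over all genes 27 DEGs became 46 at an adjusted p under 0.1, 1214 at an unadjusted p under 0.05, 9 among genes averaging 5 FPKM or more, 6 without a filter, and 0 whichever of the 4 libraries was left out. With the replicate number as a block 0 genes were called. No label says that the numbers pair the libraries. Over all genes tested, r was -0.0572 between deviations of same-numbered libraries. An effect shared by number in some of the genes was not tested. The block moved no member past the test.

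The median of the members ranged from 0.138 to 0.327 when 1 library was left out, the highest without sh-MFAP2 2, and stayed above 0 under every alternative run. Members lower in both sh-MFAP2 libraries numbered 2 among genes averaging 5 FPKM or more and 2 with median of ratios. The share over all genes was not taken under these settings. Of 27 tested members 20 kept the sign of their log2 fold change under all alternatives that could be fitted. Values moved by over 1.5 times in 18 of 27 members when 1 library was left out, in 17 with the length and GC trend removed and in 5 from summed transcripts. The 7 members without a constant sign changed sign in 13 of 346 values, and the cause was not tested. When 1 library was left out, HMGCS1 ranged from -0.59 to 0.069 and MSMO1 from -1.054 to 0.097 (both positive without control 1), SCAP from -0.11 (without control 1) to 0.177, and also -0.004 without sh-MFAP2 1, FASN from -0.06 (without sh-MFAP2 1) to 0.306, IDI1 from -0.105 (without sh-MFAP2 2) to 0.122, LSS from -0.387 to 0.078 (without sh-MFAP2 2) and PMVK from -0.355 to 0.348, positive without control 2 and without sh-MFAP2 2. PMVK was 0.065 with median of ratios and 0.03 with quantile normalization, IDI1 was -0.034 from summed transcripts, and SCAP was -0.024 with the length and GC trend removed.

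With 2 libraries per group the width of the 95% interval of a single member ran from 0.55 to 4.85 on the log2 scale.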
